A study of Mus musculus with 64 samples.

Results

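The Fc gamma receptor genes are followed here in sorted retinal microglia, as 6 genes of the 25239 in the deposited table. They were chosen by symbol: the ligand-binding chains Fcgr1, Fcgr2b, Fcgr3 and Fcgr4, the signalling chain Fcer1g, and Fcgrt, the heavy chain of the neonatal Fc receptor. All 6 were present, and all 6 passed the filter on low counts in the fit over all libraries. The mice were Cx3cr1CreER:R26-tdTomato +/- animals on a C57BL/6J background, in which tamoxifen eye drops switch on tdTomato in Cx3cr1-expressing cells and microglia keep the label after a washout. Naive mice, which had no injection, were compared with mice 12 or 28 days after an intravitreal injection of AAV2 without a transgene, at 1E10 genome copies per eye. Each condition was taken at 3, 9 and 18 months in females and males, which makes 18 groups, and each library held 600 microglia from a single retina. By the paper's methods, the vector also carried a sequence that inhibits TLR9. No vehicle-injected eye was sequenced, so injection and virus cannot be told apart in these libraries. For its cytometry, the paper reports that the changes of microglial markers were absent from eyes injected with PBS. Because Cre is driven by Cx3cr1, another long-lived cell that expressed the gene while the drops were given could also carry the label.

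Fc gamma receptors bind the constant part of IgG and let a macrophage or microglial cell respond to antibody-coated material. The activating receptors FcγRI, FcγRIII and FcγRIV (Fcgr1, Fcgr3, Fcgr4) have no signalling motif of their own and need the common gamma chain Fcer1g, whose ITAM motif recruits the kinase Syk. FcγRIIB (Fcgr2b) carries an inhibitory ITIM motif and recruits the phosphatase SHIP1 (Inpp5d). The neonatal Fc receptor, made of Fcgrt and beta-2 microglobulin, works inside the cell, where it protects IgG from degradation.

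Of the 6 genes, 4 lie close together on mouse chromosome 1 (GRCm38): Fcgr2b at chr1:170960558-170976071, Fcgr4 at chr1:171018926-171029761, Fcgr3 at chr1:171051169-171065915 and Fcer1g at chr1:171229572-171234349. Fcgr1 lies at chr3:96282909-96293969 and Fcgrt at chr7:45092993-45103822. Fcgr2b and Fcgr3 have near-identical stretches: 94 of the 1273 windows of 75 bases in the Fcgr3 transcript, or 7.38%, also occur in Fcgr2b, where they are 2.72% of its 3454 windows. In all, 231 windows of Fcgr2b, or 6.69%, occur in some other gene. Reads from those stretches cannot be assigned to one of the pair. No window of Fcgr1, Fcgr4, Fcer1g or Fcgrt occurred in a transcript of another gene.

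The 250 bases before the start of Fcgr4 and of Fcgr1 are shown because these activating receptors were among the genes that rose. Letters matching a gamma-activated site (TTCNNNGAA), an interferon-stimulated response element (ISRE) or a PU.1 core (GAGGAA) on either strand are in capitals. The sequences are RefSeq's for GRCm38.p6, 5′ to 3′ along the gene, at chr1:171018676-171018925 on the plus strand for Fcgr4 and chr3:96293970-96294219 on the minus strand for Fcgr1. All 6 genes matched an entry.
Fcgr4: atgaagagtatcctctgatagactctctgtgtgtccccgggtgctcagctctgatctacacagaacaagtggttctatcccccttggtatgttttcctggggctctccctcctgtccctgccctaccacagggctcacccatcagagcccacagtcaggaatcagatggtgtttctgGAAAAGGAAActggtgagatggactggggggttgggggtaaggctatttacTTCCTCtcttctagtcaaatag
Fcgr1: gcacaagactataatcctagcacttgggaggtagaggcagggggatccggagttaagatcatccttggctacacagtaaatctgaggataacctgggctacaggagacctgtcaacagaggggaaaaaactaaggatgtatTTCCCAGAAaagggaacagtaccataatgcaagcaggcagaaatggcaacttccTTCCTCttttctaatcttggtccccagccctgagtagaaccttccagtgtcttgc
The Fcgr4 stretch holds 1 interferon response element match, which begins 73 bases before the start, and the Fcgr1 stretch 1 gamma-activated site match, which begins 109 bases before it and reads as a match on both strands. Both hold a PU.1 core on the opposite strand, and Fcgr3 has one at each of its 2 annotated starts, while Fcgr2b, Fcer1g and Fcgrt hold none of the 3 motifs in this window. Over all 32851 promoters the shares with a match were 2.98% for the response element, 7.02% for the gamma-activated site and 23.3% for the PU.1 core, so a match is a description of the letters only.

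The 62 libraries used held 1468478 to 9836173 batch-corrected counts (median 4188992), with 2 to 4 libraries in each group. Libraries were collected on 2 days, 27 on the first and 35 on the second, and both days held naive, day 12 and day 28 libraries of all 6 age and sex groups. Each replicate was 1 eye, and by the study's methods the fellow eye went to cytometry or staining. The library labelled replicate 1 of 18-month females at day 28 had male-type sex-linked transcripts and was left out, and replicate 1 of 9-month males at day 28, with female-type transcripts, was not in the corrected counts used. One library titled day 28 (18-month males, replicate 4) has day 12 as its time point, and was kept at day 28. Microglial markers (8 of 8 listed genes detected) summed to a median of 35900 CPM (counts scaled to a common library total) in naive libraries, 13400 at day 12 and 22600 at day 28. Markers of monocytes and infiltrating macrophages, 7 of 8 of which were detected in naive libraries and 8 at day 12, moved the other way, from a median of 43.7 CPM (25.0 to 200) to 327 (47.0 to 1470) and then 75.5 (42.2 to 140). T cell markers, 6 in the table, summed to a median of 1.29 CPM in naive libraries (0 to 136), 109 at day 12 (1.60 to 282) and 60.7 at day 28 (11 to 152). Border macrophage markers had a median of 168 CPM in naive libraries, 5.36 at day 12 and 6.84 at day 28. In such bulk samples, a change in the cells collected and a change in RNA per cell cannot be told apart.

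In naive microglia the signalling chain and FcγRIII dominated. Scaled to length (CPM per kilobase of exon, mean ± SD of 6 group means), Fcer1g stood at 7010 ± 1290, Fcgr3 at 2290 ± 253, Fcgr2b at 218 ± 30.7 and Fcgr1 at 207 ± 22.2. Fcgr4 followed at 85.0 ± 12.6 and Fcgrt at 72.9 ± 7.78. The neighbours Fcgr2b and Fcgr1 differed by less than their spread, and so did Fcgr4 and Fcgrt. At day 12 the order of the receptors became Fcgr3 (1840 ± 121), Fcgr4 (554 ± 222), Fcgr2b (433 ± 95.5) and Fcgr1 (264 ± 22.4), with Fcgr4 and Fcgr2b within their spread of each other. At day 28 Fcgr2b (348 ± 44.0) again stood above Fcgr4 (258 ± 32.0), which differed from Fcgr1 (240 ± 11.1) by less than the spread.

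**Figure D1:**
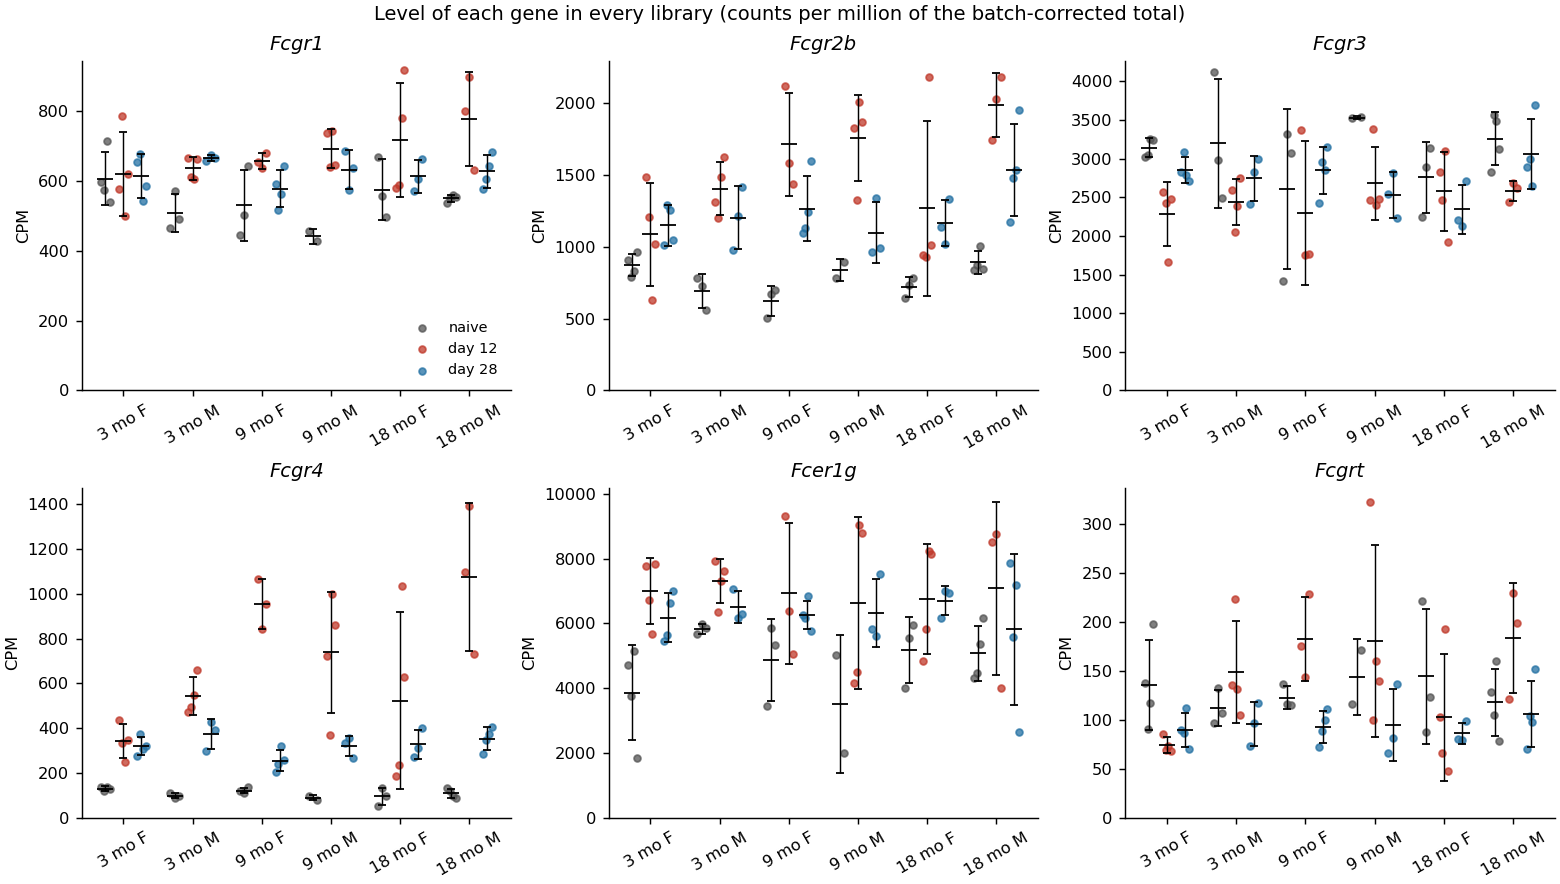
CPM of each gene (vertical axes, linear and from 0) in every library, by age and sex, with naive libraries in grey, day 12 in red and day 28 in blue; black marks are the mean ± SD of a group. All Fcgr4 libraries after injection lie above all naive ones, whereas Fcgr3 at day 28 and Fcgrt at either day overlap the naive libraries in at least 4 of 6 age and sex groups.

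Fcgr4, the activating receptor that was lowest of the 4 in naive microglia, rose most. Its level in the 19 naive libraries ran from 53.1 to 137 CPM (median 111), against 188 to 1390 CPM at day 12 (22 libraries, median 643) and 205 to 429 CPM at day 28 (21 libraries, median 318). No library after injection reached down into the naive range, at any age or in either sex. Within an age and sex group, 8.49% of all gene tests lay wholly above naive at day 12 and 6.16% at day 28. Averaged over the 6 age and sex groups, Fcgr4 was 6.66-fold higher at day 12 (log2 fold change 2.74 ± 0.167 SE, edgeR quasi-likelihood adjusted p = 6.79e-20) and 3.28-fold higher at day 28 (1.71 ± 0.158, adjusted p = 1.84e-12). Among 13584 genes tested it ranked 12 by p at day 12 and 20 at day 28.

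By group, 3-month females went from 137, 117, 136 and 130 CPM in naive retinas to 436, 333, 250 and 346 at day 12 and 274, 371, 308 and 319 at day 28. In 3-month males the naive libraries held 108, 89.4 and 97.9 CPM, the day 12 libraries 470, 495, 550 and 660, and the day 28 libraries 298, 429 and 390. The day 12 libraries of males thus lay above those of females at this age, without overlap, while the naive levels ran the other way. Neither difference passed the test (edgeR adjusted p = 0.291 at day 12 and 0.739 in naive mice). Nor did the change of the day 12 effect with sex (adjusted p = 0.374).
At 9 months, females had 117, 111 and 135 CPM naive, 1065, 842 and 954 at day 12, and 205, 238, 318 and 257 at day 28. Males of that age had 98.1 and 80.7 CPM naive, 721, 369, 1000 and 863 at day 12, and 334, 354 and 267 at day 28. The second male library at day 12 was the low one and lay close to the day 28 libraries.
At 18 months, females had 53.1, 132 and 98.0 CPM naive, 188, 235, 1036 and 627 at day 12, and 273, 309 and 400 at day 28. Males had 130, 117, 98.1 and 85.8 CPM naive, 1097, 1392 and 733 at day 12, and 285, 348, 373 and 406 at day 28. The day 12 libraries of 18-month females fell apart by collection day, 188 and 235 CPM on the first and 1036 and 627 on the second. They differed in cell markers too. Microglial markers summed to 34866.6 and 29199.8 CPM on the first day and 11990.9 and 12322.3 on the second, and T cell markers to 1.6 and 10.5 against 282.1 and 163.2. The reason for the split was not tested.

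The log2 fold change of Fcgr4 at day 12 was 1.55 ± 0.228 in 3-month females, 2.56 ± 0.202 in 3-month males, 2.98 ± 0.308 in 9-month females, 3.19 ± 0.507 in 9-month males, 2.75 ± 0.63 in 18-month females and 3.50 ± 0.274 in 18-month males. Tested for a change of more than 2-fold, it passed in 4 of these 6 groups, all but the females of 3 months (adjusted p = 0.0915) and 18 months (adjusted p = 0.647). In the separate fit of 18-month females no gene of 11159 passed at day 12 with edgeR (1403 at an unadjusted p under 0.05), while DESeq2 called 9 past 2-fold and 293 against 0. At day 28 only the 3-month males passed the 2-fold test (1.999 ± 0.205, adjusted p = 0.0022), with 18-month males next (1.83 ± 0.249, adjusted p = 0.0517). These were the only calls past 2-fold among the 6 genes: 4 of 36 tests at day 12 and 1 of 36 at day 28, where 1.64% and 0.359% of all gene tests passed upwards.
These calls came from a separate fit of each age and sex. In 1 edgeR fit over all libraries, the 18-month females passed the 2-fold test at day 12 (2.71, adjusted p = 0.0039). The 3-month males did not pass it at day 28 in that fit (1.99, adjusted p = 0.308). Single libraries also moved some of the calls of the separate fits. The 3-month female call at day 12 appeared without day 12 replicate 3 (adjusted p = 0.00948), the 18-month male call at day 28 appeared without day 12 replicate 2 (0.0302) or 3 (0.0108), and the 9-month male call at day 12 was lost without either naive replicate (0.166 and 0.22). Against a change of 0, Fcgr4 passed in 5 of 6 groups at day 12 and 3 of 6 at day 28, beside 5.20% and 1.15% of all gene tests that were higher.

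Fcgr4 receded between the days, with a log2 difference of -1.02 ± 0.146 for day 28 minus day 12 (adjusted p = 4.40e-07). In 4 of the 6 groups every day 28 library lay below every day 12 library, as in 5.73% of all gene tests. The fall passed the test in 9-month females (-1.78 ± 0.267, adjusted p = 0.00329) and 18-month males (-1.67 ± 0.26, adjusted p = 0.00145), and these were the only 2 of 36 member tests that passed, beside 1.17% of all gene tests that fell. In 3-month females the value was -0.07 ± 0.222. Against the naive level, day 28 still stood higher in every library.
The monocyte markers also peaked at day 12. The day 12 library with the lowest monocyte marker sum (47.0 CPM, 18-month females, replicate 1) had 188 CPM of Fcgr4, and the one with the highest (1468 CPM, replicate 4 of the same group) had 627. In 7 of 22 day 12 libraries the monocyte marker sum lay within the naive range, and there Fcgr4 ran from 188 to 660 CPM with a median of 346, above every naive library. The top of that range (200.4 CPM) came from a single library, naive replicate 1 of 18-month females, and the next highest naive sum was 72.1. Day 12 libraries with a sum of 72.0 CPM or less held 188.0, 250.5 and 368.6 CPM of Fcgr4. Over all 22 the Fcgr4 median was 643. Of the monocyte genes themselves, medians went from 0 CPM in naive libraries to 26.4 at day 12 for Ly6c2, from 0 to 32.8 for Fn1, from 25.3 to 109 for Ms4a4c, from 5.27 to 21.8 for Plac8 and from 1.09 to 5.25 for Ccr2, while Chil3 was at 0 in all naive and in 19 of 22 day 12 libraries. The part of such cells in the Fcgr4 values was not tested.

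Fcgr2b, the inhibitory receptor, was the other gene that about doubled. Naive libraries held 505 to 1010 CPM (median 785), day 12 libraries 632 to 2180 (median 1490) and day 28 libraries 964 to 1950 (median 1210). It was 2.12-fold higher at day 12 (1.09 ± 0.12, adjusted p = 7.01e-11) and 1.73-fold higher at day 28 (0.79 ± 0.12, adjusted p = 1.30e-06). The log2 fold change was positive in 6 of 6 age and sex groups at both days, from 0.48 to 1.46 at day 12 and from 0.52 to 1.12 at day 28, and none passed the 2-fold test.
Among 3-month males the naive libraries had 785, 727 and 560 CPM, the day 12 libraries 1312, 1199, 1484 and 1623, and the day 28 libraries 977, 1214 and 1412. Among 18-month males the values were 837, 873, 1006 and 848 CPM naive, 1741, 2030 and 2178 at day 12, and 1169, 1476, 1533 and 1952 at day 28. Both series of groups kept the 2 days after injection above naive without overlap.
In 9-month females the libraries had 505, 671 and 698 CPM naive, 2116, 1584 and 1433 at day 12, and 1097, 1127, 1243 and 1593 at day 28. In 9-month males they had 781 and 893 CPM naive, 1822, 1324, 2005 and 1870 at day 12, and 964, 1340 and 988 at day 28. These groups too were separated from naive at both days.
The 3-month females had 906, 787, 830 and 963 CPM naive, 1486, 1205, 632 and 1018 at day 12, and 1011, 1288, 1254 and 1045 at day 28. The 18-month females had 644, 735 and 780 CPM naive, 944, 931, 2179 and 1011 at day 12, and 1139, 1019 and 1334 at day 28. A single low library, day 12 replicate 3 of the 3-month females, made the only overlap of Fcgr2b with naive in 6 groups at day 12, and there was none at day 28. Of all gene tests, 8.49% lay wholly above naive at day 12 and 6.16% at day 28.
Between day 12 and day 28 the difference was -0.30 ± 0.113 (adjusted p = 0.0569). It passed under 8 of the 13 other settings tried, 1 of which gives no p (DESeq2 adjusted p = 0.0292), among them the first collection day alone (-0.58, adjusted p = 0.0322) but not the second (-0.24, adjusted p = 0.324), and lay close enough to the threshold that leaving out any 1 of 12 single libraries brought it below 0.05 (lowest adjusted p 0.0209, without day 12 replicate 3 of the 3-month females). The others were day 12 replicate 2 of 3-month males, replicates 2 and 3 of 9-month females, replicate 2 of 9-month males and replicates 1 and 2 of 18-month females, and at day 28 replicate 3 of 3-month and 9-month males, replicate 4 of 9-month and 18-month females and replicate 4 of 18-month males.

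Fcgr1, the high-affinity receptor, rose by less. It ran from 427 to 716 CPM in naive libraries (median 552), 500 to 919 at day 12 (median 651) and 517 to 685 at day 28 (median 639). The averaged difference was 1.37-fold at day 12 (0.46 ± 0.0871, adjusted p = 2.23e-05) and 1.25-fold at day 28 (0.33 ± 0.0878, adjusted p = 0.00553), with a positive value in 6 of 6 groups at both days. The libraries after injection cleared the naive ones in 3 of 6 age and sex groups at either day, beside 8.49% of all gene tests at day 12 and 6.16% at day 28. These were the males of the 3 ages, and in females the libraries overlapped at each age. Tests of whether its change differed between the sexes did not pass at any age (edgeR adjusted p 0.803 to 1). Among the separate groups it passed the test against 0 only in 18-month males at day 12 (0.67 ± 0.21, adjusted p = 0.0452). From day 12 to day 28 it differed by -0.13 ± 0.0835 (adjusted p = 0.303).

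Fcgr3, by far the most abundant ligand-binding chain, did not pass the test in any comparison of days. Naive libraries held 1420 to 4120 CPM (median 3120), day 12 libraries 1660 to 3390 (median 2470) and day 28 libraries 2130 to 3700 (median 2810). The averaged log2 difference was -0.20 ± 0.111 at day 12 (adjusted p = 0.161, 95% interval -0.419 to 0.0171) and -0.07 ± 0.113 at day 28 (adjusted p = 0.798). In 3 of 6 age and sex groups all day 12 libraries lay below all naive ones, against 11% of all such gene tests. One library decides this call: without replicate 1 of the 9-month females at day 12, which held 3370 CPM beside 1750 and 1764 in its group, the day 12 difference was -0.32 with an adjusted p of 0.00886. In the uncorrected counts of each collection day, the sign was positive on the first (0.11 ± 0.133, adjusted p = 0.641) and negative on the second (-0.37 ± 0.152, adjusted p = 0.0646).

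Fcer1g, the chain that the activating receptors share, rose at both days. Its level was 1850 to 6160 CPM in naive libraries (median 5140), 4010 to 9310 at day 12 (median 7470) and 2630 to 7860 at day 28 (median 6270). That is 1.62-fold at day 12 (0.70 ± 0.152, adjusted p = 1.83e-04) and 1.45-fold at day 28 (0.54 ± 0.153, adjusted p = 0.00915), positive in 6 of 6 groups at each day. The day 28 libraries cleared the naive ones in 4 of 6 groups (6.16% of all gene tests) and the day 12 libraries in 2 (8.49%). Without any batch handling of the uncorrected counts neither day passed (0.65, adjusted p = 0.0573, and 0.65, adjusted p = 0.113).
Fcer1g is a short transcript of 674 bases, and a few libraries were low in short transcripts as a class. Across 424 other protein-coding genes with a median transcript length under 800 bases, 5 libraries deviated from their group's median by -0.412 to -0.718 on the log2 scale, while the lowest of the others stood at -0.245. Fcer1g deviated by -0.595 to -1.26 in the same 5 libraries, and over all 62 libraries the 2 deviations had a Pearson r of 0.899, a description over libraries that share their preparation. These were naive libraries of 3-month females (1852 CPM of Fcer1g) and 9-month males (1996), day 12 libraries of 9-month males (4164) and 18-month males (4005), and the day 28 library of 18-month males with the contrary time point (2634). The naive 9-month males were a group of 2, whose deviations are equal and opposite by construction (-0.412 and 0.412). Whether 1 of them was low or the other high cannot be told from this measure. In a group of 3 the median of each gene is the value of 1 of its libraries, which draws the deviations towards 0. Naive replicate 1 of 9-month females thus read 0, while its Fcer1g deviated by -0.629. The split into 5 low libraries and the rest therefore depends partly on group size. Without the 5 libraries the averaged difference was 0.65 at day 12 (adjusted p = 7.59e-05) and 0.45 at day 28 (adjusted p = 0.0123), a fit added after the data were seen. The batch correction also moved this gene most, by a median log2 of 0.651 in libraries of the first day and -0.444 in those of the second.

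Fcgrt, which handles IgG inside the cell, was low throughout. Naive libraries held 78.5 to 221 CPM (median 117), day 12 libraries 47.3 to 322 (median 133) and day 28 libraries 66.1 to 152 (median 89.7). It differed between the days after injection, with a log2 difference of -0.53 ± 0.142 for day 28 minus day 12 (adjusted p = 0.00532). Neither day passed the test against naive in the main fit, with 0.19 ± 0.146 at day 12 (adjusted p = 0.335) and -0.34 ± 0.148 at day 28 (adjusted p = 0.122). Within the first collection day, on uncorrected counts, day 28 did lie below naive (-0.78 ± 0.231, edgeR adjusted p = 0.0223). Within the second it did not pass (-0.13 ± 0.16, adjusted p = 0.753).
At day 12 the log2 fold change was positive in 4 of 6 groups. The 3-month females had 138, 90.3, 117 and 198 CPM naive and 85.1, 68.7, 73.4 and 68.3 at day 12 (-0.73 ± 0.232, adjusted p = 0.0384), with every day 12 library below every naive one. The 9-month females had 136, 116 and 115 CPM naive and 175, 144 and 228 at day 12 (0.54 ± 0.272, adjusted p = 0.256), with every day 12 library above. Of all gene tests, 8.49% lay wholly above naive at day 12 and 11% wholly below. The test of whether the day 12 change differed between these 2 groups did not pass (1.26 ± 0.493, edgeR adjusted p = 0.425). In the uncorrected counts of the second collection day alone the fall from day 12 to day 28 did not pass (-0.26 ± 0.164, adjusted p = 0.319), while within the first it did (-0.96 ± 0.224, adjusted p = 0.0199).

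Counted together, 4 of the 6 genes were higher at day 12 in the averaged comparison (Fcgr4, Fcgr2b, Fcer1g, Fcgr1) and none lower, where 20.2% of the 13584 genes tested were higher and 15.8% lower. The same 4 were higher at day 28, where 9.00% of all genes were higher and 6.52% lower. Between day 12 and day 28, Fcgr4 and Fcgrt were lower and none was higher, beside 10.3% lower and 7.92% higher among all genes. The median log2 difference of the 6 was 0.579 at day 12, 0.433 at day 28 and -0.229 between the days, and that of all genes tested 0.0235, 0.0165 and -0.0172. Day 12 and day 28 share the naive libraries.
Within each collection day, fitted on uncorrected counts, Fcgr4 stood at 2.92 on the first and 2.66 on the second at day 12, and at 1.73 and 1.67 at day 28, all past the test. Fcgr2b stood at 1.28 and 1.05 at day 12 and 0.70 and 0.81 at day 28, again past it each time. Fcer1g and Fcgr1 passed on both collection days at day 12 (0.81 and 0.87, 0.50 and 0.49). At day 28 Fcer1g passed on the second only (0.68, against 0.51 with adjusted p = 0.0593), and Fcgr1 on neither (0.32, adjusted p = 0.102, and 0.34, adjusted p = 0.0879).
In the age and sex groups taken singly, without the 2-fold requirement, 11 of 36 tests of the 6 genes were higher at day 12 and 5 of 36 at day 28, beside 5.20% and 1.15% of all gene tests. Libraries at day 12 lay wholly above naive in 17 of 36 cases (8.49% of all gene tests) and wholly below in 4 (11%). At day 28 they lay wholly above in 19 of 36 (6.16%) and wholly below in 2 (8.65%). Day 28 lay wholly above day 12 in 1 case (5.41%) and wholly below in 5 (5.73%).

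**Figure D2:**
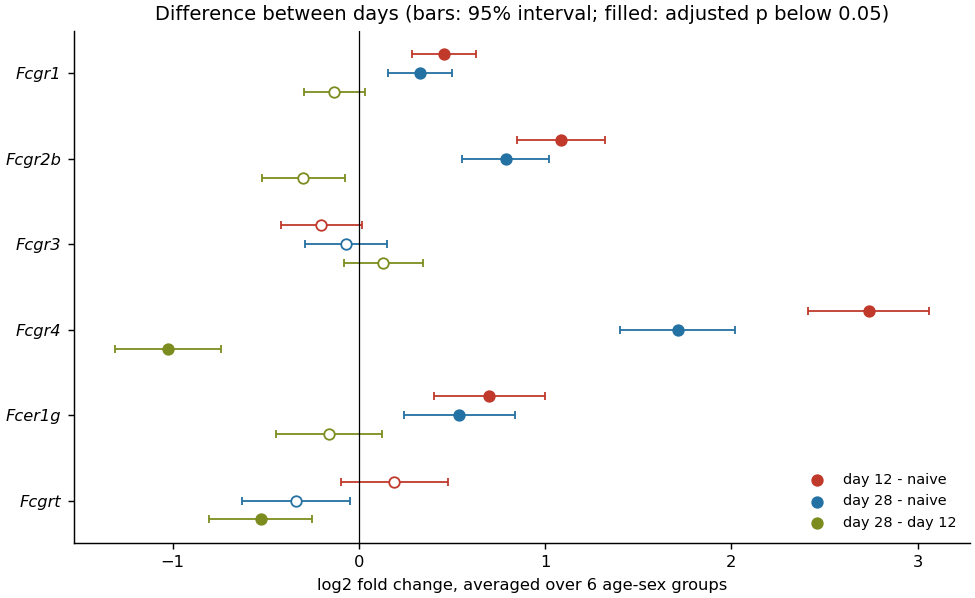
Log2 fold change of each gene between days, averaged over the 6 age and sex groups (horizontal axis); bars span the 95% interval and filled points passed at an adjusted p below 0.05. Fcgr4 stands apart at 2.74 for day 12 and 1.71 for day 28.

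**Figure D3:**
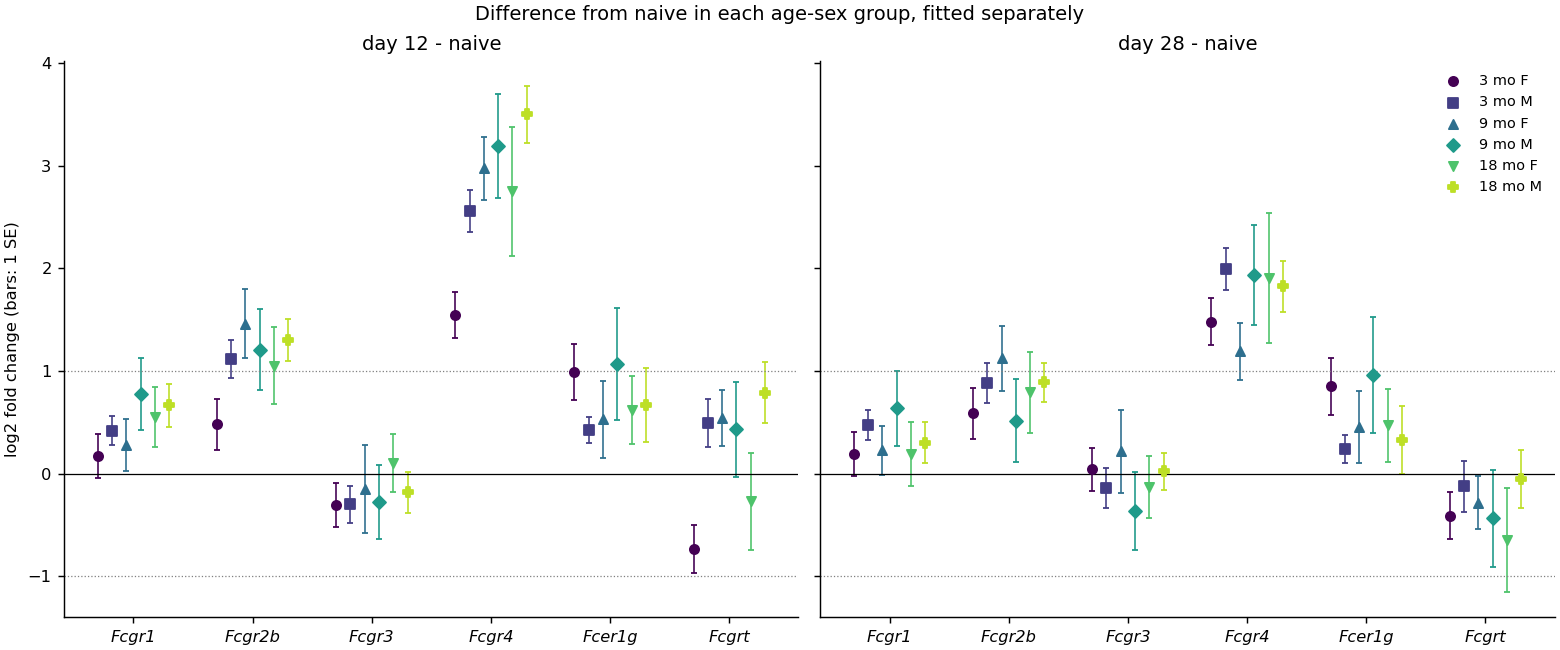
Log2 fold change against naive (vertical axis, bars 1 SE) in each age and sex group, at day 12 on the left and day 28 on the right; dotted lines mark 2-fold. Fcgr4 runs from 1.55 to 3.50 at day 12 and from 1.19 to 2.00 at day 28, and Fcgr3 from -0.31 to 0.10 and from -0.37 to 0.22.

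These unequal changes altered the make-up of the receptor transcripts. As shares of the length-scaled total of the 4 ligand-binding chains, Fcgr3 made up 81.1% ± 3.06 (SD over 19 libraries) in naive microglia, 60.7% ± 8.35 at day 12 (22 libraries) and 70.7% ± 2.20 at day 28 (21 libraries). Fcgr4 went from 3.20% ± 0.988 to 16.8% ± 6.60 and then 8.87% ± 1.35. Fcgr2b went from 7.94% ± 0.948 to 13.7% ± 2.38 and 12.1% ± 1.31, and Fcgr1 stayed between 7.77% and 8.78% on average. The highest naive share of Fcgr4 was 6.34%, and the lowest after injection were 5.47% at day 12 and 6.31% at day 28.
Set against the inhibitory receptor in the same library, the log2 ratio of Fcgr4 to Fcgr2b was -2.85 ± 0.385 in naive libraries, -1.30 ± 0.479 at day 12 and -1.95 ± 0.279 at day 28 (CPM, not scaled to length). That of Fcgr3 to Fcgr2b went from 1.97 ± 0.217 to 0.764 ± 0.429 and then stood at 1.16 ± 0.18, and that of Fcgr1 to Fcgr2b went from -0.511 ± 0.294 to -1.09 ± 0.424 and -0.987 ± 0.272. These shares and ratios are descriptions without a test.

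**Figure D4:**
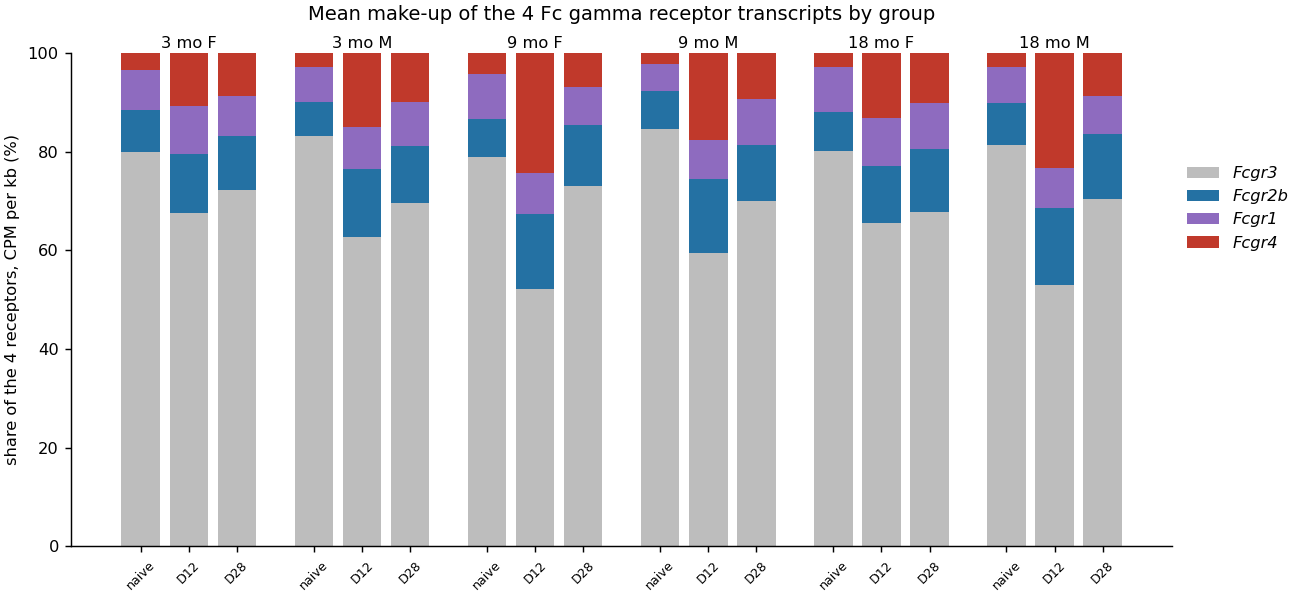
Mean share (vertical axis, %) of Fcgr3, Fcgr2b, Fcgr1 and Fcgr4 in their summed CPM per kilobase, for naive (left), day 12 (middle) and day 28 (right) libraries of each age and sex. Fcgr3 is the largest share in every group, and the Fcgr4 share is largest at day 12 in every age and sex group.

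Age at a given day and sex was the next question. None of the 6 genes passed at an adjusted p below 0.1 in 72 tests of 9 or 18 months against 3 months with edgeR, nor with DESeq2, while 0.106% of all gene tests did. At an unadjusted p under 0.05 there were 4: Fcer1g in naive 9-month males (-0.82 ± 0.303, adjusted p = 0.404), Fcgr4 and Fcgrt in 9-month females at day 12 (1.41 ± 0.525, adjusted p = 0.315, and 1.22 ± 0.398, adjusted p = 0.231), and Fcgr4 in 18-month males at day 12 (0.94 ± 0.377, adjusted p = 1). Over all genes, that threshold was met by 1340 of 11566 in the naive 9-month male comparison. It was met by 1214 of 11193 in 9-month females at day 12 and 444 of 11216 in 18-month males at day 12. The naive 9-month males were 2 libraries, of which 1 was lower in short transcripts than the other.
A test of whether the day effect changed with age found none of the 6 genes in 48 interaction tests with edgeR or DESeq2 (0.0655% of all gene tests passed), and 5 at an unadjusted p under 0.05. These included Fcgr4 at day 12 in females at 9 months (1.41 ± 0.567, adjusted p = 0.443) and 18 months (1.18 ± 0.55, adjusted p = 0.346) and in males at 18 months (0.95 ± 0.401, adjusted p = 1). The other 2 were Fcgr2b (0.97 ± 0.458) and Fcgrt (1.26 ± 0.493) in 9-month females at day 12. Over all genes, 1102 and 1680 of 12445 met that threshold at day 12 in females at 9 and 18 months. In males at 18 months and day 12, 507 of 12735 did.

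Between the sexes, 1 of 54 tests passed at an adjusted p below 0.1: Fcgrt was higher in males than in females at 3 months and day 12 (1.08 ± 0.235, adjusted p = 0.0730), where 0.0588% of all gene tests passed. DESeq2 called 3 of the 54, and 1 fit over all libraries called none. The 3-month males had 135, 223, 131 and 104 CPM there, all above the 68.3 to 85.1 CPM of the females. The call was lost on leaving out any 1 of 8 single libraries of the 3-month groups (female day 12 replicates 2, 3 and 4, male day 12 replicates 1 and 2, male naive replicate 3, and replicate 2 of either sex at day 28), where no gene of the 6 passed, and in the fit with the replicate block. Fcgr4 at the same age and day stood 0.74 ± 0.203 higher in males (adjusted p = 0.291).
For the change of the day effect with sex, none of 36 tests passed with edgeR or DESeq2 (0.0124% of all gene tests did), and 2 had an unadjusted p under 0.05. Both were at 3 months and day 12, Fcgr4 (1.01 ± 0.302, adjusted p = 0.374) and Fcgrt (1.23 ± 0.344, adjusted p = 0.312). Over all genes in that comparison, 1126 of 12002 had an unadjusted p under 0.05. A p that misses the threshold does not show that the sexes or ages responded alike.

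The neighbouring genes of the pathway came from lists chosen for their known role. B2m, the light chain of the neonatal receptor, rose by 1.42 at day 12 (adjusted p = 2.97e-12) and 1.17 at day 28 (adjusted p = 4.29e-09), log2 scale, while its partner Fcgrt did not pass at either day. Of the 25 genes of ITAM signalling, 6 were higher and 4 lower at day 12, near the 20.2% and 15.8% of all genes, with a median of 0.159 against 0.0235 for all genes. The 3 with the smallest p were Pik3ap1 (1.27, adjusted p = 3.37e-11), an adaptor for PI3-kinase, the T cell and mast cell adaptor Lat (4.31, adjusted p = 1.32e-07) and the Src-family kinase Fgr (1.76, adjusted p = 9.55e-07). The T cell marker sum was also higher at day 12, and its part in the value of Lat was not tested. The lower ones were led by Pik3cg (-0.75, adjusted p = 9.41e-05), Bcl10 (-0.47, adjusted p = 3.07e-04) and Btk (-0.42, adjusted p = 0.00463). Syk and Tyrobp were picked out after their values were seen: Syk, the kinase that binds the Fcer1g motif, was at -0.09 (adjusted p = 0.679), and Tyrobp, a second ITAM adaptor, at 0.10 (adjusted p = 0.648).
At day 28, 5 of the 25 were higher and 2 lower, where 9.00% and 6.52% of all genes were. Fgr (1.52, adjusted p = 4.54e-05), Lat (3.13, adjusted p = 1.65e-04) and Tyrobp (0.64, adjusted p = 4.23e-04) led the higher ones, and Bcl10 (-0.38, adjusted p = 0.0100) and Lyn (-0.26, adjusted p = 0.0169) were the lower ones. From day 12 to day 28, 2 were higher and 6 lower.

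On the inhibitory side, 2 of 11 genes were lower at day 12, where 15.8% of all genes were, and none higher (20.2%). Inpp5d, the phosphatase SHIP1 that FcγRIIB recruits, was at -0.40 (adjusted p = 0.00174) and the Csk-binding protein Pag1 at -1.23 (adjusted p = 6.34e-09). At day 28 only Dok3, another adaptor for SHIP1, was lower (-0.60, adjusted p = 0.0134). Of 10 genes of phagocytosis and the NADPH oxidase, 3 were higher and 2 lower at day 12, beside the same shares of all genes. Cybb and Cyba, the membrane subunits of the oxidase, rose by 2.93 (adjusted p = 5.92e-18) and 0.66 (adjusted p = 9.47e-05), and the GTPase Rac2 by 0.97 (adjusted p = 3.63e-10). The actin regulator Wasf2 was among the lower ones (-0.87, adjusted p = 5.62e-07). At day 28 Cybb (1.42, adjusted p = 3.61e-08) and Cyba (0.53, adjusted p = 0.00478) were still higher, and 2 genes were lower.

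Among 12 other Fc receptor genes, 6 could be tested. At day 12 Fcrls, an Fc receptor-like gene of microglia (-2.57, adjusted p = 4.62e-11), and Fcrl1 (-1.81, adjusted p = 2.35e-06) were lower and Trim21, a cytosolic antibody receptor, was higher (0.81, adjusted p = 1.37e-04). At day 28 Fcrls alone was lower (-1.67, adjusted p = 5.74e-06). Of the 12 immunoglobulin genes listed as possible ligands or B cell products, only Jchain was in the table, and it did not pass at either day (2.46, adjusted p = 0.135, and 1.69, adjusted p = 0.203). Immunoglobulin heavy and light chain transcripts were not analysed here.
Of 10 known regulators of these receptors, 6 were higher and 2 lower at day 12 (20.2% and 15.8% of all genes), and 2 higher and 2 lower at day 28 (9.00% and 6.52%). Irf1 (2.23, adjusted p = 5.37e-15), which acts downstream of interferon, rose at day 12, as did Ifng itself (4.79, adjusted p = 7.91e-05), a T and NK cell product. The interferon receptor chain Ifngr1 (-0.89, adjusted p = 6.68e-08) and the myeloid factor Spi1, or PU.1 (-0.28, adjusted p = 0.0202), were lower. At day 28 Irf1 was among the higher ones (1.11, adjusted p = 3.35e-06), and Ifngr1 (-0.39, adjusted p = 0.0287) and Spi1 (-0.30, adjusted p = 0.0298) lower.

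The genes whose mean log2 CPM over the 18 groups ran most like Fcgr4 were Cd72 (Pearson r 0.983), Zbp1 (0.969) and Iigp1 (0.969). For Fcgr2b they were Bcl3 (0.942), Vcam1 (0.936) and Iigp1 (0.935), and for Fcgr1 Rtp4 (0.914), Slfn1 (0.879) and Fam241a (0.878). Fcer1g ran closest to Cox8a (0.964), Micos13 (0.962) and Aif1 (0.954), Fcgr3 to Rsl1d1 (0.943), Sptssa (0.926) and Fopnl (0.923), and Fcgrt to Atp5a1 (0.859), Anapc5 (0.849) and Arf5 (0.839). The choice depended on the points used: over the 62 single libraries Cd72 was again the closest to Fcgr4 (0.950), whereas Bcl3 took place 109 for Fcgr2b (0.711) and Fam241a place 63 for Fcgr1 (0.650). Among the 6 genes themselves the closest pair was Fcgr4 and Fcgr2b (0.930 over groups, 0.866 over libraries). Fcgr3 ran against Fcer1g (-0.727 over groups) and Fcgr4 (-0.632), less so over libraries (-0.23 and -0.322). These correlations are descriptions over points that share days, ages and collection days. The part of the short-transcript deviation in those of Fcer1g was not tested.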

How the data were processed

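Each library held RNA of 600 tdTomato-high microglia sorted from a single retina, copied to cDNA with the SMART-Seq v4 kit and sequenced as single-end reads. The authors demultiplexed with bcl2fastq 2.20, aligned to mm10 with STAR 2.7.8a, counted reads per gene with featureCounts (strand setting not given in the sources used here) and adjusted the counts for the 2 collection days with ComBat_seq in R 4.2.2. The deposited values are whole-number counts for 25239 genes, and the deposited uncorrected counts served only for within-day fits and alternatives. Batch correction shifts single libraries, so its size is given beside the gene it moved most.

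CPM were computed on library totals of 1468478 to 9836173 counts. The lowest count of any of the 6 genes was 107, against a floor of 3 counts (2.04 CPM in the shallowest library), which covers counting error only. Tests used edgeR 4.0.16 in R 4.3.3: quasi-likelihood fits of each age and sex with a test for more than 2-fold, 1 fit over 62 libraries with days averaged over 6 groups, and fits of ages, sexes and interactions, adjusted by Benjamini-Hochberg over all genes tested, at 0.05 for days and 0.1 otherwise. DESeq2 1.42.0 was an alternative. The scripts were tested on simulated data. No 2 libraries of a group agreed within sampling noise (79 pairs). P-values measure the spread between these libraries that was left after the batch correction, and the main fits held no term for collection day.

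The 6 genes and all lists were chosen with earlier results of these data known. Named beside the 6 were at most the 3 list genes with the smallest p in each direction, and for each of the 6 the 3 genes most like it over 18 groups. Some list genes are counted but their values are not reported here. Replicate numbers are shared between groups, but same-numbered libraries did not deviate together (mean correlation -0.0343 over 54 pairs, against 0.0116 over 159 others). Alternatives covered normalization, the filter on low counts, batch handling, the replicate block, the library with conflicting day labels, 1 fit for all libraries, and leaving out each library.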

Additional observations from a re-analysis of the deposited data

Results flagged for a closer look

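Among 54 sets of 4 libraries (6 genes in 9 groups), 3 held a library that stood apart from the other 3, where chance gives about 1 in 20. Fcgr2b was high in replicate 3 of 18-month females at day 12 (2179.1 CPM), Fcgr3 was low in replicate 3 of 3-month females at day 12 (1659.7 CPM), and Fcgr3 was high in replicate 2 of 9-month males at day 12 (3388.5 CPM).

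Fcgrt at day 12 lay wholly above naive in 9-month females (log2 fold change 0.5415) and wholly below it in 3-month females (-0.7327). The interaction that tests this difference was 1.26 ± 0.493 with an unadjusted p of 0.0158 and an edgeR adjusted p of 0.425.

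The libraries kept out of the comparisons also held these transcripts, in uncorrected CPM. Replicate 1 of 9-month males at day 28 had 1650 of Fcgr2b and 272 of Fcgr4, and replicate 1 of 18-month females at day 28 had 914 of Fcgr1, 3150 of Fcgr2b and 1080 of Fcgr4. The highest of 19 naive libraries had 672, 1080 and 139 of Fcgr1, Fcgr2b and Fcgr4. Both libraries carried sex-linked transcripts contrary to their labels.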

How the results depend on the processing

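Of 3814 values compared, 3720 stayed as they were by the criterion for their kind: direction and side of the threshold for a tested gene, within 1.5 times for a count of calls, within the spread of replicates for a level with no test, and within 0.1 for a correlation, by which 12 of 18 moved over single libraries. Leaving out a library refitted only the comparisons that held it. Values of the other comparisons were carried over from the main fits, could not change, and are counted among the 3720. The cause of the changes below was not tested. Without the 2-fold requirement the calls among the 6 genes went from 4 to 12 at day 12 and from 1 to 5 at day 28, and with it the averaged calls went from 10 to 2. The day 28 count was 2 with no filter, 2 without the 5 libraries low in short transcripts (chosen after seeing the data) and 0 in 1 fit over all libraries, where the day 12 count was 5. Between day 28 and day 12 the count went from 2 to 1 with the replicate block, 1 with the library of conflicting labels at day 12, and 4 without the libraries low in short transcripts. With the replicate block the averaged count was 11 and the day 12 count 3; the numbers do not pair the libraries. Age calls went from 0 to 3 with no filter and 1 in 1 fit, sex calls from 1 to 3 with DESeq2, 2 with no filter, 0 with the replicate block and 0 in 1 fit, and sex by day from 0 to 1 with no filter. Leaving out 1 library at a time gave 3 to 5 calls at day 12, 1 to 2 at day 28, 2 to 3 between them, 10 to 11 averaged, 0 to 1 for age and 0 to 2 for sex. The direction reversed for Fcer1g from day 12 to day 28 without batch handling (0.00282), and for Fcgr3 within the first collection day at day 12 (0.1136) and from day 12 to day 28 (-0.1566). Fcer1g lost its averaged call without batch handling at day 12 (0.65, adjusted p = 0.0573) and day 28 (0.65, adjusted p = 0.113), and Fcgr1 lost its call at day 28 with no filter (adjusted p = 0.0556). Groups of 2 to 4 libraries limit the age, sex and interaction tests.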
